A study of Mus musculus with 36 samples.

Results

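The response of the remaining right lung to pneumonectomy (PNX, here the surgical removal of the left lung) was followed from day 3 to day 7 in mice 9 months old. For each pool of RNA, the log2 ratio of the right lung over the left lung of the same mice was taken for every transcript, and the 3 ratios of day 7 were set against the 3 ratios of day 3. This uses 12 of the 36 arrays of the study and 6 of its 18 pools. Of 45281 probes on the array, 15795 probes of 11835 genes were detected on all 36 arrays and were tested.

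All mice were C57BL6 females. The left lung was taken out at surgery and is the control, so it was taken before the injury, and the right lung of the same mouse was taken 3 or 7 days later. Each array held equal amounts of RNA of 2 mice, and the mice of day 3 and of day 7 were different animals. The study also held mice 3 months old and a day 1 time point, which are drawn on here for comparison only. No sham-operated arrays were analysed here, so surgery and anaesthesia cannot be told apart from the loss of the left lung.

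After PNX the remaining lung of a rodent grows, adding cells, matrix and gas exchange surface. The early phase is known for inflammation and entry of cells into the cycle, and the later phase for matrix deposition and the formation of new septa by fibroblasts, epithelium and vessels. A gene can thus respond early and return to its level in the control lung, which is called resolving here, or respond only later, which is called late-starting.

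The tissue carried the defining transcripts of lung. The mean log2 intensity of 15 markers of alveolar type II cells lay between 12.84 and 13.66 on the 12 arrays and that of 14 markers of alveolar type I cells between 12.27 and 12.92, against a median transcript between 9.22 and 9.25. Markers of skeletal muscle, which is not a part of the lung, were low in all left lungs and high in some right lungs. Their 8 tested members averaged 7.98 to 8.36 in left lungs and 7.46 to 11.74 in right lungs.

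Replicate arrays of the right lung of day 3 were the least alike, with correlations across transcripts of 0.967 to 0.984, against 0.986 to 0.994 on day 7 and 0.990 or more in left lungs. The arrays sat on 6 chips, and each chip carried 1 side and 1 day, with both ages on it. Chip and day therefore cannot be told apart in the change from day 3 to day 7, nor can chip and side in the response of either day. The 75th percentile of the deposited intensities was 188 to 197 on the left arrays of day 3 and 321 to 384 on the right arrays of day 3. On day 7 it was 237 to 297 on the left and 274 to 320 on the right. The part of these differences in the results was not tested, beyond a second scaling given with the first count.

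From day 3 to day 7 the response changed for a small set of genes. Among the changed transcripts that carry a gene name, C1qtnf3, a secreted protein of the C1q and TNF family, had the largest rise, from below the control lung on day 3 to above it on day 7. Alas2, the first enzyme of haem synthesis in red cells, rose from far below its control level to near that level. Ezh2, the methyltransferase that places a repressive mark on histone H3, fell from raised to a level that no longer passed the test. Ankhd1, an ankyrin repeat protein that takes part in Hippo signalling, fell from a day 3 response that was not called to far below the control lung.

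In limma, 222 transcripts of 211 genes changed at an adjusted p under 0.05 and by at least 1.5-fold, 89 higher and 133 lower on day 7. That is 1.41% of the transcripts tested, 0.563% higher and 0.842% lower. At an unadjusted p under 0.05 there were 2941. The 3 pools of a day did not overlap with those of the other day for any of the 222, while over all transcripts the day 7 ratios lay wholly above the day 3 ratios for 11.5% and wholly below for 12.3%. The median change over all transcripts was 0.00. With the arrays scaled to their 75th percentile in place of quantile normalization the count was 226, of which 198 were shared.

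The count leaned on single pools. It was 5 without the third pool of day 7, 42 without the second pool of day 7, 41 without the second pool of day 3 and 120 without the third pool of day 3. The other pools left 187 and 213. Only 5 of the 222 transcripts were called in all 6 of these fits, namely those of C1qtnf3, Cdh16, Senp1, the clone E130309K17Rik and a probe of 2810453I06Rik, which is now named Fam220a. A total of 25 were called in at least 5 of the 6 fits, and 37 in none. Every other gene named below as changed therefore lost its call without at least 1 pool. Named genes among the 37 included Bach1, Pdgfra, Igfbp5, Cxcl17, Ceacam1, Spef1, Cd86, H2-DMb1, Thy1 and Sept3. Those called in only 1 of the 6 fits included Pgc, Dgat2, Dpt, Cdt1, Krt18, F13a1, Psmb1, Nasp, Ccno and Tgfb3.

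The responses themselves were much broader than their change. On day 3, 2966 transcripts differed between right and left lung (18.8% of those tested), and on day 7 there were 3400 (21.5%). Of the 222 changed transcripts, 67 were resolving, called on day 3 and closer to the control lung on day 7, and 114 were late-starting, called on day 7 and not on day 3. Another 9 grew in the same direction, 8 crossed from one side of the control lung to the other, and 24 were called on neither day alone. These classes were cut from the same ratios as the change, so their levels on day 3 and day 7 are a description. A transcript that was not called on day 3 may still have differed there, as with E130309K17Rik, whose ratios were 0.56, 0.63 and 0.44 before they fell to −0.89, −1.14 and −0.77.

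**Figure D1:**
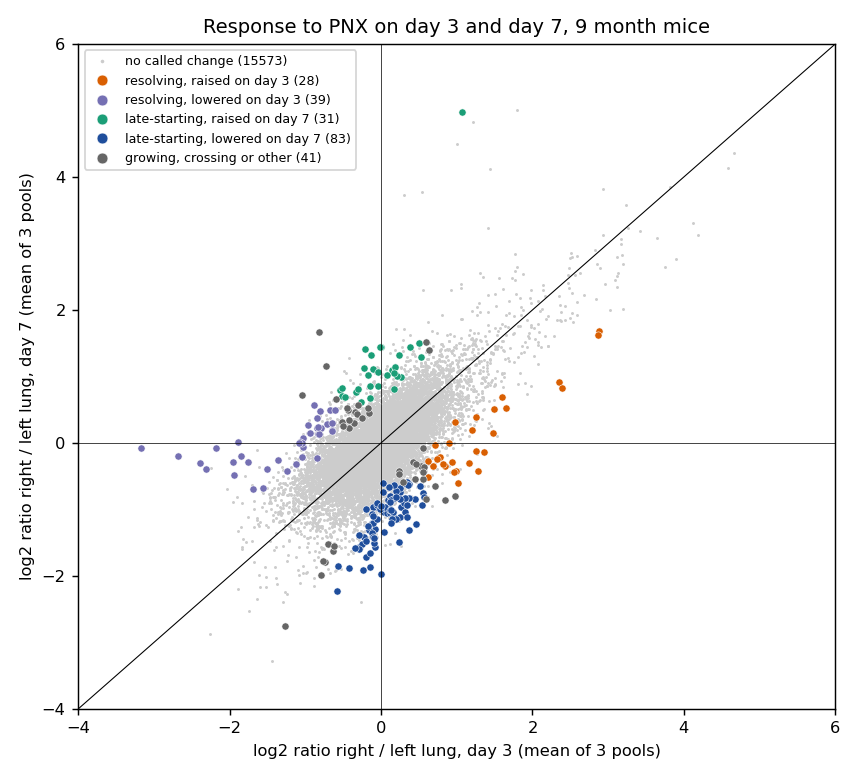
The mean log2 ratio of right over left lung on day 3 (horizontal axis) and on day 7 (vertical axis) over 3 pools each, for the 15795 transcripts tested in 9 month mice. Colours mark the classes of the 222 changed transcripts, which lie away from the diagonal of equal response. Resolving transcripts lie near 0 on the vertical axis and late-starting ones near 0 on the horizontal axis.

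At the threshold the members were not set apart from their neighbours. Just inside were Ap2b1 with a change of −0.86 (adjusted p 0.0495, limma), Mycbpap with 0.81 (0.0497) and Sept3 with 1.17 (0.0498). Just outside were Mettl9 with −0.89 (0.05003), U2af1l4 with 0.93 (0.0505) and a second probe of Col23a1 with −0.71 (0.0512).

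Resolving transcripts that had been raised on day 3 numbered 28, with a median log2 ratio of 1.09 on day 3 and −0.13 on day 7, and 23 of them were no longer called on day 7. Ezh2 had ratios of 1.48, 1.25 and 1.13 on day 3 and 0.04, −0.66 and −0.67 on day 7. All 3 pools of day 3 were thus raised more than 2-fold, and those of day 7 were at or below the control lung. The change was −1.71 (SE 0.26, limma adjusted p 0.0068).

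Psmb1, a subunit of the proteasome core, had ratios of 2.00, 2.42 and 2.64 on day 3 and 1.06, 0.65 and 1.04 on day 7. It stayed above the control lung in every pool while falling by 1.44 (SE 0.31, limma adjusted p 0.033). Nasp, a chaperone of histones H1 and H3, gave 0.47, 1.64 and 1.66 on day 3 and 0.05, 0.11 and −0.55 on day 7. The first pool of day 3 was close to the pools of day 7, and the other tested probes of Nasp changed by −0.25 and 0.23.

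Cdt1, which loads the replicative helicase onto origins, had ratios of 1.08, 1.34 and 1.33 on day 3 and 0.72, 0.17 and 0.28 on day 7, a change of −0.86 (SE 0.20, limma adjusted p 0.043). The H2A histone probes Hist1h2ak and Hist1h2ah, now H2ac15 and H2ac12, fell by 1.23 and 1.19. Histone genes of this cluster are near-identical, so the probes may read several copies and the gene is uncertain. Ccno, which serves the amplification of centrioles in cells that build many cilia, had ratios of 1.84, 1.98 and 1.13 on day 3 and 0.09, 0.66 and 0.82 on day 7.

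Mmp3, a stromal protease, was at 2.40 on day 1 as a mean ratio, at 0.57, 0.92 and 1.55 on day 3 and at −0.09, −0.86 and −0.87 on day 7. Serpina3n, an acute phase inhibitor of serine proteases, was at 2.46 on day 1, at 1.11, 1.25 and 2.10 on day 3 and at 0.67, 0.30 and 0.54 on day 7. Both were highest on day 1 and lowest on day 7, and their changes from day 3 were −1.62 (SE 0.39) and −0.99 (SE 0.21), with limma adjusted p of 0.047 and 0.03. The other probes of Mmp3 changed by −0.88, for the brightest, and −1.10, and neither was called.

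F13a1, the clotting factor chain that macrophages of repair also make, had ratios of 1.5, 1.68 and 1.61 on day 3 and 0.88, 0.51 and 0.68 on day 7. Krt18, a keratin of simple epithelia and mesothelium, had 0.44, 0.87 and 1.36 on day 3 and 0.18, −0.12 and −0.08 on day 7. F13a1 remained above the control lung on day 7, and Krt18 came back to it. Of 8 markers of mesothelium Krt18 alone was called, against 1.34% of all genes, and 6 of the 8 had estimates above 0. The medians of that list were 0.84 on day 3 and 1.06 on day 7, so it did not fall with Krt18. For Sfrp1, an inhibitor of Wnt ligands, the probe called fell by 1.57, from 1.92, 2.86 and 2.38 to 1.06, 0.51 and 0.88, but a second probe changed by −0.11. For Cxcl12, the stromal chemokine that binds CXCR4, the probe called fell by 1.39 and the others changed by −0.52 and 0.30.

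Resolving transcripts that had been lowered on day 3 numbered 39, of 35 genes. Their median ratio was −1.05 on day 3 and 0.00 on day 7, and 37 of them were no longer called on day 7. Genes of the red cell lineage were among them. In bulk tissue, fewer cells of a type and less RNA per cell cannot be told apart.

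Alas2 was at 14.06, 13.45 and 13.51 in the left lungs of the day 3 mice and at 11.94, 11.77 and 10.78 in their right lungs, as log2 intensities. In the day 7 mice the left lungs read 13.30, 13.23 and 13.00 and the right lungs 12.93, 13.55 and 12.79. The ratios were thus −2.12, −1.68 and −2.73 on day 3 and −0.37, 0.32 and −0.20 on day 7. The low values were those of the 3 right lungs of day 3, which lay below the other 9 arrays. The change was 2.10 (SE 0.34, limma adjusted p 0.009), and the response was already −1.05 on day 1.

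Slc25a37, mitoferrin 1, which brings iron to the mitochondria of erythroid cells, had −1.55, −1.38 and −1.62 on day 3 and −0.54, −0.28 and −0.36 on day 7. It recovered in part and stayed below the control lung in every pool. Slc4a1, the anion exchanger of the red cell membrane, had −1.67, −1.99 and −3.08 on day 3 and −0.48, −0.79 and 0.11 on day 7. The pools of Slc4a1 did not overlap, but its change of 1.86 did not pass the test (limma adjusted p 0.053).

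For Hbb-b1, the beta globin chain, 2 probes passed with changes of 1.04 and 0.99, and the 8 other probes changed by 0.03 to 0.38. Globin genes share sequence, and the probes cannot be assigned to single globins with certainty. Of 7 tested members of the list of erythroid genes, 1 was called higher (Alas2), 3 had an unadjusted p under 0.05, all higher, and none was lower. The share called over all genes was 1.34%, with 0.566% higher and 0.777% lower. The list was lowered on day 3 for 3 members and on day 7 for 1, against 10.7% and 10.6% of all genes. Averaged over its members, the ratio was −0.69, −0.71 and −1.19 on day 3 and −0.04, −0.27 and −0.10 on day 7.

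The other genes whose ratio had been lowered and recovered were of mixed kinds. A recovery of the ratio can lie in the left lungs, and for Kcnc4 a part of it did. Of the 39 lowered and resolving transcripts, the right lungs were called in the direction of the change for 25. The left lungs were called in the opposite direction for 9. Kcnc4, a voltage-gated potassium channel, had −1.79, −1.97 and −1.91 on day 3 and −0.39, 0.35 and 0.06 on day 7. Fam220a gave ratios of −2.05, −2.06 and −1.70 on day 3 and −0.75, −0.41 and −0.29 on day 7 with one probe and the same direction with another, at changes of 1.45 and 1.47. Mia1, a secreted protein first known from cartilage and melanoma, rose with both of its probes, by 1.10 and 0.95. Lyz1, a lysozyme of alveolar type II cells in mice, had −0.24, −0.85 and −1.40 on day 3 and 0.07, 0.14 and 0.17 on day 7.

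Spef1, a protein of the ciliary axoneme, had ratios of −1.40, −1.32 and −1.97 on day 3 and −0.65, −0.90 and −0.47 on day 7, a change of 0.89 (SE 0.21, limma adjusted p 0.045). Tmem107, of the ciliary transition zone, rose by 1.09, while its other probes changed by 0.70 and −0.36. Over 16 markers of ciliated cells, 12 were lowered on day 3 and 4 on day 7, against 10.7% and 10.6% of all genes. Their medians were −0.81 and −0.26. The median change was 0.47, against 0.02 over all genes, and 9 of the 16 were higher at an unadjusted p under 0.05, against 1091 of 11835 genes. None of the 16 passed the adjusted test in limma, against 1.34% of all genes called. Averaged over the 16, the ratio was −0.39, −0.83 and −1.03 on day 3 and −0.49, −0.26 and −0.11 on day 7, with overlap. From day 3 to day 7 the median difference was 0.29 in right lungs and −0.29 in left lungs, so a part of the change lay in the control lungs.

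**Figure D2:**
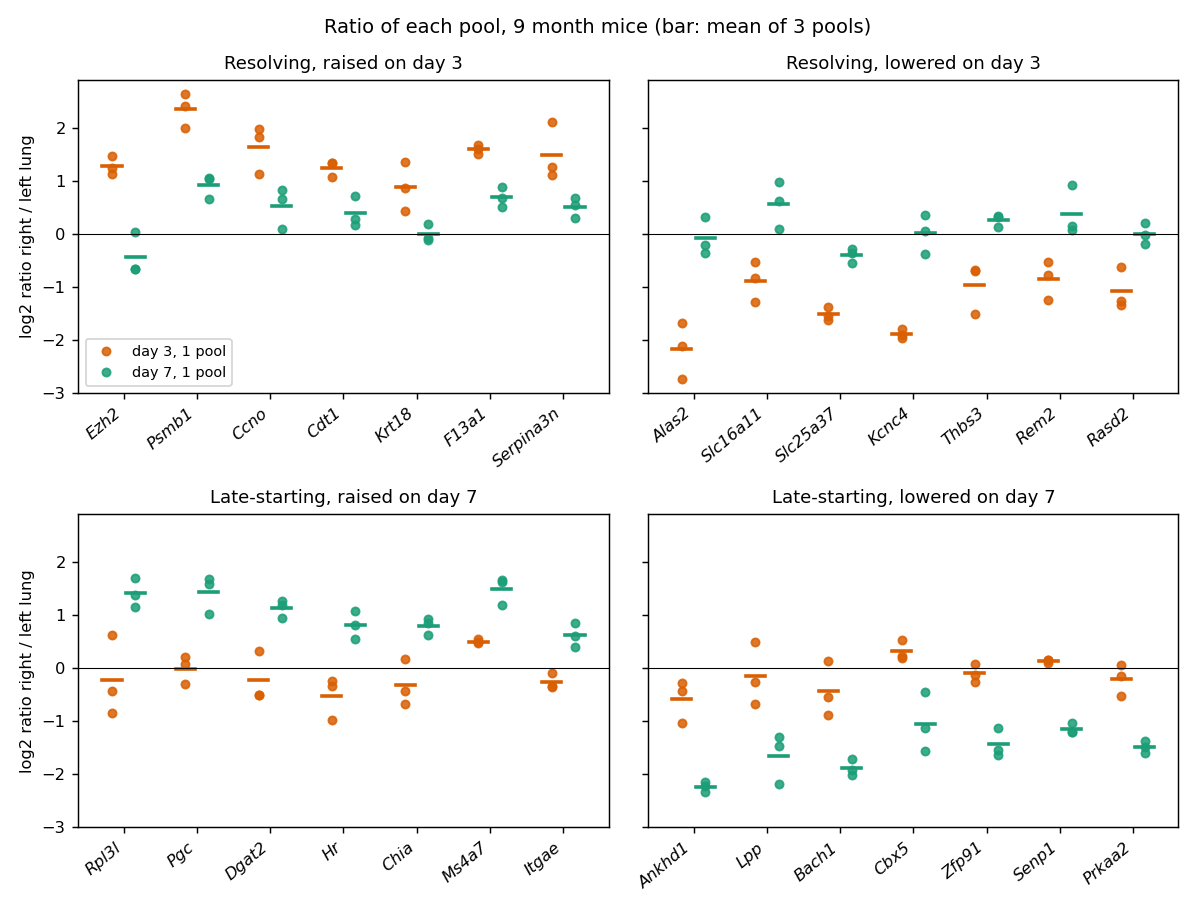
The log2 ratio of right over left lung in each pool for 28 changed genes in 4 panels, with day 3 in orange and day 7 in green. Points are pools and bars are means of 3 pools. The ratios of Alas2 lie between −2.73 and −1.68 on day 3 and between −0.37 and 0.32 on day 7, and those of Ankhd1 fall below −2.1 on day 7 only.

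Late-starting transcripts that rose numbered 31, of 29 genes, with medians of −0.04 on day 3 and 1.04 on day 7. Pgc, progastricsin, a protease that alveolar type II cells use in the processing of surfactant protein B, had ratios of 0.21, 0.08 and −0.30 on day 3 and 1.03, 1.69 and 1.58 on day 7, a change of 1.44 (SE 0.34, limma adjusted p 0.044). Chia, now Chia1, the acidic chitinase of the airway and stomach, had 0.18, −0.68 and −0.43 on day 3 and 0.93, 0.63 and 0.86 on day 7, and its second probe changed by 1.09 against 1.11. Dgat2, which makes triglycerides, had 0.32, −0.51 and −0.50 on day 3 and 1.19, 1.27 and 0.95 on day 7.

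In each of these the day 3 pools straddled the control lung and the day 7 pools were all above it. Hr, a corepressor that acts with nuclear receptors, behaved alike in 2 probes, with changes of 1.33 and 1.34 and with ratios for the first of −0.34, −0.97 and −0.24 on day 3 and 0.56, 0.82 and 1.08 on day 7. Of 15 markers of alveolar type II cells none was called, against 1.34% of all genes, and 7 were higher at an unadjusted p under 0.05, against 1091 of 11835. Their median change was 0.35, against 0.02 over all genes. Averaged over the 15, the ratio was 0.10, −0.08 and −0.52 on day 3 and 0.18, 0.11 and 0.07 on day 7. The days overlapped, and the third pool of day 3 lay farthest from the others.

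Thbs3, a thrombospondin of the extracellular matrix, rose with 3 probes, by 1.46, 1.26 and 1.23. The first of these probes was late-starting, with ratios of 0.57, −0.03 and −0.60 on day 3 and 1.42, 1.47 and 1.44 on day 7, and the others crossed or recovered. Igfbp5, which binds insulin-like growth factors, had 0.57, 0.42 and 0.60 on day 3 and 1.27, 1.35 and 1.25 on day 7. Igfbp5 was near the fold threshold on day 3, so its class as late-starting rests on that threshold. Dpt, dermatopontin, a small protein of collagen-rich matrix, had 0.21, −0.29 and −0.37 on day 3 and 0.63, 0.71 and 0.68 on day 7, and the called probe of Fbln1, a matrix glycoprotein, rose by 0.91.

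Ms4a7, a membrane protein of macrophages, had ratios of 0.55, 0.49 and 0.47 on day 3 and 1.67, 1.19 and 1.63 on day 7, a change of 0.99 (SE 0.20, limma adjusted p 0.029). Itgae, the integrin chain CD103 of dendritic cells and lymphocytes in epithelium, rose by 0.93 and 0.88 with its 2 probes, from below the control lung in all 3 pools of day 3 to above it in all 3 of day 7. Cd86, a costimulatory receptor of antigen-presenting cells, rose by 0.83, H2-DMb1, which loads peptides onto MHC class II, by 0.61, and Thy1, a surface protein of T cells and some fibroblasts, by 0.76. Cd86, H2-DMb1, Thy1 and one of the probes of Itgae were not late-starting, since they were called on neither day alone.

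The lists of immune cell markers are read against 1.34% of all genes called, 10.7% lowered on day 3, 10.6% lowered on day 7, a median change of 0.02, and 1091 of 11835 genes higher and 1026 lower at an unadjusted p under 0.05. Of 13 monocyte markers 2 were called, Ms4a7 higher and F13a1 lower, and of 8 markers of dendritic cells 1 was called (Itgae). Of 15 markers of T and NK cells, 10 were lowered on day 3 and 5 on day 7, the median change was 0.60, 1 was called (Thy1) and 9 were higher at an unadjusted p under 0.05. Cd2, a T cell adhesion receptor, had −0.58, −0.93 and −1.59 on day 3 and 0.08, −0.43 and 0.19 on day 7, with a change of 0.98 that missed the test (limma adjusted p 0.056). Of 11 genes of antigen presentation by MHC class II, 5 were lowered on day 3 and 1 on day 7, all 11 estimates were above 0 with a median of 0.38, and 1 was called (H2-DMb1). Of 9 neutrophil markers none was called and 3 were lower at an unadjusted p under 0.05, with medians of 0.61 on day 3 and −0.13 on day 7.

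The locus LOC635815, for which no current gene name was found, had the highest change of all, 3.91 (SE 0.84, limma adjusted p 0.031), with ratios of 1.00, 0.07 and 2.13 on day 3 and 5.15, 4.86 and 4.91 on day 7. Rpl3l, a ribosomal protein restricted to striated muscle, rose by 1.63 (SE 0.37), from −0.84, −0.43 and 0.63 to 1.16, 1.71 and 1.38. The list of skeletal muscle markers had a mean ratio of −0.52, −0.19 and 2.75 in the 3 pools of day 3 and 2.80, 3.39 and 3.15 in those of day 7. The third pool of day 3 was close to the pools of day 7, and the other pools of day 3 were close to the control lung. On day 1 the mean ratio of the list was already 2.54, 2.32 and 2.10 in the 3 pools. The classes use days 3 and 7 only, so a late-starting call here does not show a late onset.

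Mylpf, the regulatory light chain of fast muscle, had ratios of −0.11, −0.59 and 4.34 on day 3 and 4.38, 5.05 and 5.02 on day 7. None of the 8 muscle markers passed the adjusted test in limma (Mylpf 0.055), against 1.34% of all genes called. All 8 were higher at an unadjusted p under 0.05, against 1091 of 11835 genes, with a median change of 2.51. Whether muscle tissue was taken with the right lungs was not tested, and the rise of Rpl3l is given with these values beside it. Rpl3l and LOC635815 were, like the markers, highest in the third pool among those of day 3.

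**Figure D3:**
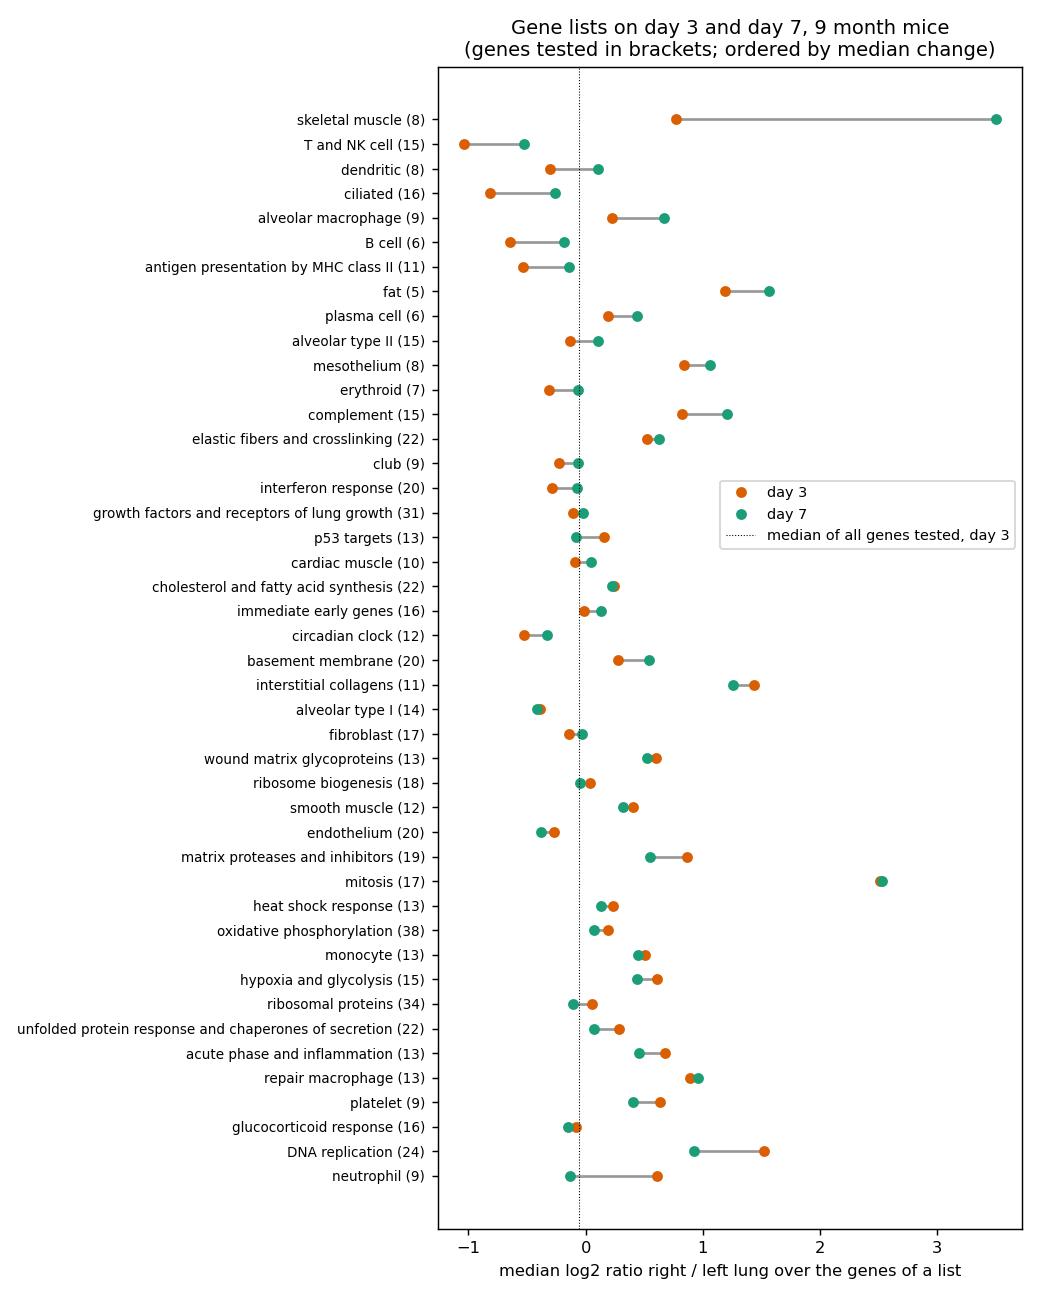
Median log2 ratio of right over left lung on day 3 (orange) and day 7 (green) over the tested genes of each list of at least 5, ordered by the median change, with the number of genes in brackets and the median of all genes on day 3 as a dotted line. Skeletal muscle moves farthest, from 0.77 to 3.50, and mitosis stays at 2.51 and 2.53.

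Late-starting transcripts that fell were the largest class, 83 of 82 genes, with medians of 0.10 on day 3 and −1.05 on day 7. Senp1, a protease that removes SUMO from proteins, had the tightest values, 0.10, 0.17 and 0.16 on day 3 and −1.20, −1.04 and −1.21 on day 7, a change of −1.29 (SE 0.17, limma adjusted p 0.0042). Ankhd1 had −0.44, −0.29 and −1.03 on day 3 and −2.15, −2.23 and −2.33 on day 7, a change of −1.65 (SE 0.25, limma adjusted p 0.0068). Ankhd1 was below the control lung in all 6 pools, and its 3 right lungs of day 7 lay at 7.47, 7.25 and 7.09, below the other 9 arrays, which ranged from 8.29 to 9.62.

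Ddx6, an RNA helicase of processing bodies that represses translation, fell by 1.72 and 1.71 with 2 probes, and the remaining probe changed by −1.13 without passing the test. Bach1, a repressor of haem oxygenase that haem itself releases from DNA, had −0.53, 0.14 and −0.88 on day 3 and −1.92, −2.02 and −1.71 on day 7. Prkaa2, a catalytic subunit of AMP-activated kinase, had 0.05, −0.15 and −0.53 on day 3 and −1.36, −1.48 and −1.60 on day 7. Atm, the kinase that signals DNA double-strand breaks, fell by 1.27, Runx1, a transcription factor of blood formation, by 1.14, and Chd4, the ATPase of a nucleosome remodelling complex, by 1.2.

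Pdgfra, the receptor of fibroblasts for platelet-derived growth factor, had 0.06, −0.14 and 0.14 on day 3 and −0.57, −0.79 and −0.44 on day 7, a change of −0.62 (SE 0.15, limma adjusted p 0.0495) at the edge of the test. Of 17 markers of fibroblasts 1 was called in each direction, against 1.34% of all genes. The median change of that list was 0.0005, with 9 of the 17 above 0. Cxcl17, a chemokine of mucosal epithelium, had 0.41, 0.15 and 0.44 on day 3 and −0.81, −0.49 and −0.46 on day 7. Ceacam1, a cell adhesion receptor, had 0.00, −0.20 and 0.02 on day 3 and −1.06, −1.43 and −0.95 on day 7, and its second probe changed by −1.14. Nr2f2, a nuclear receptor that marks venous endothelium, fell by 0.99.

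Other probes of the same genes did not always follow. Of the 222 called transcripts, 87 had another tested probe of the gene. All other probes had the same sign for 66 of these, at least 1 was itself called in the same direction for 21, and none was called in the opposite direction. Among the 27 late-starting falls with another probe, 20 had the same sign throughout and 3 had another call. For Itgb1, the beta 1 integrin chain, the called probe fell by 1.45 and the other rose by 0.31 without passing. For Gcc2, a golgin of the trans-Golgi, the called probe fell by 1.97 and the other changed by −0.12. Resolving transcripts that had been raised had the least support of this kind, with 6 of 11 of the same sign and 0 of 11 with another call, and those that had been lowered had 14 of 16 and 9 of 16.

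A few genes passed from one side of the control lung to the other. C1qtnf3 had ratios of −0.99, −0.76 and −0.70 on day 3 and 1.08, 1.90 and 2.05 on day 7, a change of 2.49 (SE 0.27, limma adjusted p 0.00054). Cdh16, a cadherin of kidney and other epithelia, had −1.27, −0.90 and −0.96 on day 3 and 0.38, 0.70 and 1.06 on day 7, a change of 1.75 (SE 0.19, the same adjusted p). For both genes the 3 pools of each day lay close together and far from those of the other day. C1qtnf3 was one of the dimmer transcripts, with log2 intensities between 5.58 and 7.62 on these arrays.

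Tff2, a trefoil peptide of mucosal repair, had 0.07, −1.22 and −1.06 on day 3 and 0.68, 1.11 and 1.68 on day 7. Selp, P-selectin, by which activated endothelium and platelets catch leukocytes, went the other way, with 0.19, 0.65 and 1.71 on day 3 and −0.74, −0.79 and −1.04 on day 7, a change of −1.71 (SE 0.31, limma adjusted p 0.015). Itga6, the alpha 6 integrin chain that binds laminin, had 0.79, 1.62 and 0.53 on day 3 and −0.62, −1.03 and −0.75 on day 7. Its other probes fell by 0.50 and 0.92 without a call.

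Among responses that grew, Tgfb3, a ligand of the TGF-beta family, had ratios of 0.55, 0.69 and 0.67 on day 3 and 1.23, 1.60 and 1.38 on day 7, a change of 0.76 (SE 0.17, limma adjusted p 0.038). Syne1, nesprin 1, which ties the nucleus to the cytoskeleton, had −0.91, −1.29 and −1.60 on day 3 and −2.52, −2.56 and −3.18 on day 7. Both were called on each day as well as in the change. With the brightest probe of each gene, Tgfb3 and Pdgfra were the called members of the list of growth factors and receptors of lung growth, 2 of 31 with 1 in each direction, against 1.34% of all genes. Igfbp5 and Cxcl12 are members of the same list for which only a dimmer probe was called.

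Of 17 genes of mitosis all 17 were raised on day 3 and all 17 on day 7, with medians of 2.51 and 2.53 and a median change of −0.07. None of the 17 was called in the change, against 1.34% of all genes. Of 24 genes of DNA replication, 22 were raised on day 3 and 17 on day 7, against 8.47% and 9.95% of all genes. Their medians were 1.52 and 0.93 and the median change was −0.52. Cdt1 alone was called, and 12 of 24 were lower at an unadjusted p under 0.05, against 1026 of 11835 genes. Averaged over the replication genes, the ratio was 1.071, 1.386 and 1.905 on day 3 and 1.123, 0.775 and 1.015 on day 7. The first pool of day 3 thus lay within the pools of day 7. The difference between the replication and mitosis lists was not tested.

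Within that list, Tyms, which makes thymidylate, had 1.63, 1.68 and 2.38 on day 3 and 1.29, 0.66 and 0.74 on day 7, with a change of −1.0 that did not pass (limma adjusted p 0.074). Mki67, a marker of cycling cells from the mitosis list, had 2.53, 3.26 and 3.46 on day 3 and 2.71, 1.94 and 2.71 on day 7, with overlap between the days. Of 11 interstitial collagen genes 9 were raised on day 3 and all 11 on day 7, against 8.47% and 9.95% of all genes. None was called in the change, against 1.34% of all genes.

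Of 11 genes selected from those the study also followed by PCR or staining, only Tgfb3 was called in the change here. Eln, tropoelastin, had ratios of 2.04, 3.23 and 3.54 on day 3 and 2.88, 2.96 and 3.54 on day 7, and Col3a1, a fibrillar collagen, had 2.39, 3.19 and 3.94 on day 3 and 2.82, 3.08 and 3.06 on day 7. Both were raised in all 6 pools and the pools of the days overlapped. With the left lungs of this age as a common baseline, where only the right lungs differ, Col3a1 changed by 1.17 in place of −0.19. Over the alternative settings the change of Eln ranged from −0.26 to 1.23, and 1 setting called it as a rise. The overlap of the ratios therefore does not show that the right lungs were alike on day 3 and day 7. Tnc, tenascin C, a glycoprotein of wound matrix, spread most, with 2.20, 3.73 and 5.32 on day 3 and 3.27, 2.46 and 2.20 on day 7, a change of −1.11 (SE 0.60, limma adjusted p 0.34). Lox, which crosslinks collagen and elastin, had 0.95, 1.99 and 2.83 on day 3 and 0.98, 0.58 and 0.66 on day 7 (change −1.18, limma adjusted p 0.099). The remaining genes of this set changed by −0.84 (Il1b) to −0.17 (Acta2) with no call.

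Because the control is another lung of other mice on each day, a change of the ratio can lie in the right lungs, in the left lungs or in both. The right lungs of day 7 differed from those of day 3 for 1533 transcripts (9.71%), and the left lungs of the day 7 mice from those of the day 3 mice for 854 (5.41%), although all left lungs were taken before injury. The left lungs thus differed between cohorts and chips beyond the spread of their replicates. For 167 of the 222 changed transcripts the comparison of the right lungs was called in the same direction, for 163 of them with no call between the left lungs, and for 27 the left lungs were called in the opposite direction. The right lung part was the larger for 188. The 222 were chosen on the difference between these parts, so the counts of the parts are a description.

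The share differed between classes as a description. The comparison of the right lungs was called, with or without a call between the left lungs, for 76 of the 83 late-starting falls, 23 of the 28 raised and resolving transcripts, 25 of the 39 lowered and resolving transcripts and 16 of the 31 late-starting rises. For C1qtnf3 the right lungs rose by 1.40 and the left lungs were lower by 1.09 in the day 7 cohort (limma adjusted p 0.0037 for the left), so a part of its change lay in the control lungs. For Cdh16 the right lungs rose by 2.01 and the left by 0.25, and for Alas2 the right lungs rose by 1.60 and the left were lower by 0.50.

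Some changes lay mainly in the left lungs. Rasd2, a small GTPase of the Ras family, changed by 1.08 with −0.18 in right lungs and −1.26 in left lungs, and Dgcr8, the partner of Drosha in microRNA processing, changed by 1.10 with 0.03 in right and −1.07 in left lungs. For Kcnc4 the parts were 0.91 and −0.98, and for Slc16a11, a monocarboxylate transporter, 0.44 and −1.01. In these the right lungs of the 2 days differed little or no more than the control lungs did. For Ezh2 the right lungs fell by 1.52 and the left rose by 0.19, and for Senp1 and Prkaa2 likewise the right part was the larger.

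**Figure D4:**
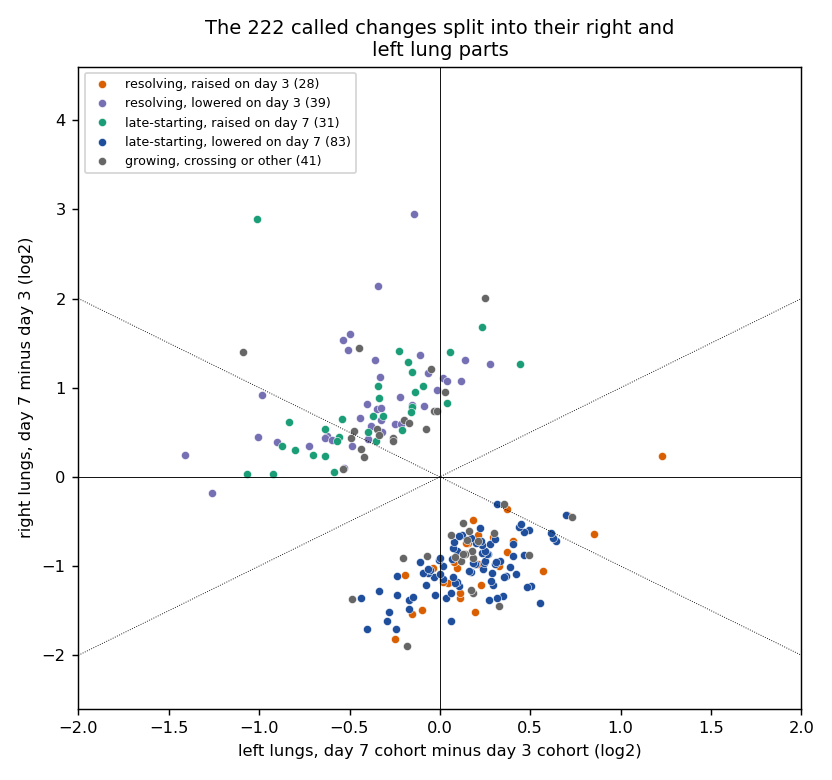
Each of the 222 changed transcripts by the difference between the left lungs of the cohorts (horizontal axis) and between the right lungs (vertical axis), day 7 minus day 3, in log2 units. The dotted lines mark parts of equal size. Late-starting falls gather below 0 on the vertical axis, and some rises, such as Rasd2 at −1.26 and −0.18, lie to the left with little change in the right lungs.

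The arrays of mice 3 months old shared the chips but sat at other positions, so age and position cannot be told apart. In these mice 3 transcripts were called in the same comparison (0.019%), and 2251 had an unadjusted p under 0.05. The difference in change between the ages was called for 0 transcripts (0%) in limma, with 1012 at an unadjusted p under 0.05, and the methods' t-test gave 408 unadjusted and 0 after Benjamini-Hochberg adjustment. Of the 222 transcripts called at 9 months, 203 changed in the same direction at 3 months, and across the 15795 transcripts the changes of the ages had a correlation of 0.461. Both ages shared chips, so this is a description of the arrays, and transcripts are not independent replicates. A larger count at 9 months is not a test that the ages differ.

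C1qtnf3 changed by 1.56 at 3 months (SE 0.27, limma adjusted p 0.053) and Ankhd1 by −1.28 (SE 0.25, limma adjusted p 0.054), both in the direction of the older mice. Cdh16 changed by 0.33 at 3 months (SE 0.19), and the difference between ages of 1.42 (SE 0.26) had a limma adjusted p of 0.41, the lowest among the genes named by rule. Psmb1 changed by −0.11, Lpp, a scaffold of cell adhesions, by −0.05 and Chia by −0.04 at 3 months, against −1.44, −1.51 and 1.11 at 9 months. None of these differences passed the test.

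Alas2 had ratios of −0.08, −1.24 and −0.39 on day 3 and −0.02, −0.79 and 0.58 on day 7 in the 3 month mice, where the pools of the days overlapped. Its change there was 0.50 (SE 0.34), and the difference of 1.60 (SE 0.48) from the older mice had a limma adjusted p of 0.65. The medians of the classes at 3 months were −0.47 for raised and resolving, 0.47 for lowered and resolving, 0.39 for late-starting rises and −0.59 for late-starting falls, smaller than at 9 months, where the members were chosen.

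**Figure D5:**
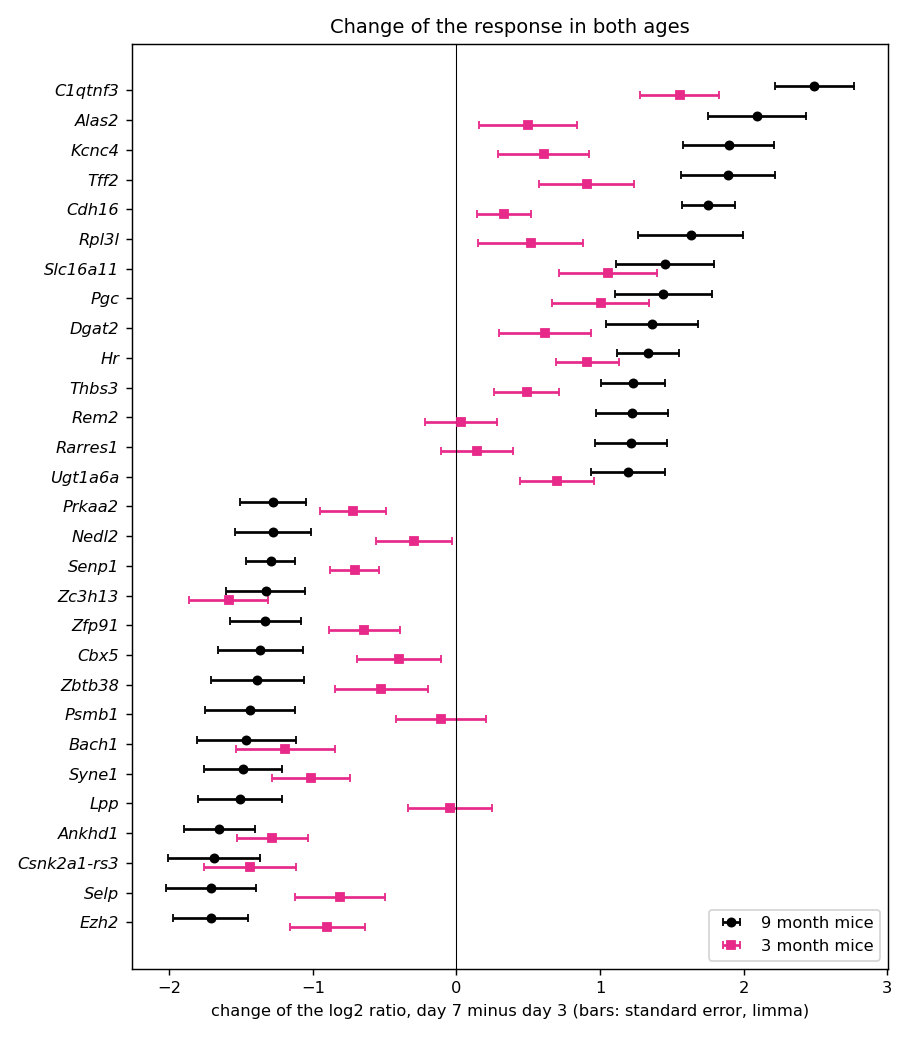
The change of the log2 ratio from day 3 to day 7 in 9 month mice (black circles) and 3 month mice (pink squares) for named genes with the largest change at 9 months, up to 15 per direction. Bars are standard errors from limma, with 3 pools per age and day. Most genes moved in the same direction in both ages, while Lpp lay at −1.51 in the older and −0.05 in the younger mice.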

How the data were processed

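Lungs of 36 Illumina MouseWG-6 v2 arrays were measured, each a pool of 2 mice. The authors deposited for each probe a bead intensity and a detection p-value, and also log2 values, made per their methods by background correction, summarization and quantile normalization. The submitters' processing notes name RMA, lumi and limma without versions. The supplementary comparisons of the authors, which hold fold changes and p-values, were not used. The tables held 72 other columns of values, which were not used.

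Starting from the deposited intensities, the detection p-values served to estimate the background, which was removed with the normexp model of limma 3.58.1 (offset 16) in R 4.3.3, followed by quantile normalization and log2. A probe was tested if its detection p was below 0.05 on each of the 36 arrays. The detection threshold of the authors is not given in the sources used here. Of 30789 symbols on the array, 21841 matched RefSeq names. Detection is measured against the array's negative control beads, and precision is limited by how many arrays there are.

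The log2 ratio of right over left lung was taken per pool, since both lungs come from the same mice. A single limma model took all 18 ratios, with a mean for each of the 6 combinations of age and day, and the change was a contrast of this fit, adjusted by Benjamini-Hochberg. Calls were made at an adjusted p below 0.05 with a change of 1.5-fold or more. Left and right arrays of the same pool, each centred on its group, correlated by −0.0477 to 0.078 across transcripts over the 6 pools. P-values measure the spread between pools of 2 mice.

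Named genes were, in each direction, the 15 called and non-overlapping ones that changed most, the 10 largest of each direction of the resolving and late-starting classes, up to 4 members per gene list with the smallest p, and 11 genes selected from those the study also measured by PCR or staining. Further called genes were named after their values were seen, as examples of groups or of disagreeing probes. The members and the 45 lists were chosen with earlier results of these data known. Of the list members, 1 gene is not reported here and was left out of its list. For a gene with several probes the brightest was used in lists. Alternatives were the background, scaling, detection filter, fold, test, array weights, the pairing, the baseline and each pool left out.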

Additional observations from a re-analysis of the deposited data

Results flagged for a closer look

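Outside the tested transcripts, which had to be detected on every array, 6 probes were detected in all 3 right lungs of one day of the 9 month mice and in neither the right lungs of the other day nor any of the 6 left lungs. Intensities here are the deposited ones, before any scaling. Stfa2, a stefin made by neutrophils and their precursors, was detected on day 3 only, with a lowest intensity of 96.34 and a highest of 256 in right lungs, against at most 17.7 in left lungs.

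The others were detected on day 7 only. Cst9, a cystatin, had a lowest intensity of 199.4 in the right lungs of day 7 and at most 25.7 in those of day 3, and was detected in all 3 right lungs of day 7 of the 3 month mice and in 0 of day 3. Gng13, a G protein gamma subunit of taste cells and other chemosensory cells, had a lowest intensity of 102.5 and Col24a1, a fibrillar collagen, one of 62.1. The major urinary proteins Mup2 and Mup1 had lowest intensities of 99.31 and 79.38 and reached 572 and 589. Mup genes are near-identical, so which of them a probe read is uncertain. In the 3 month mice Mup1 was also detected in all 3 right lungs of day 3.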

How the results depend on the processing

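Against 222 changed transcripts, the count was 312 without background correction, 297 with an offset of 50, 321 with the log2 values deposited by the authors, 261 at a detection p under 0.01 and 175 when detection was asked only of the 12 arrays. It was 82 when detection was asked of at least 3 arrays and 72 with no such filter, where more transcripts were tested, 115 when only the 12 arrays were fitted, and 1231 with array weights. The methods' t-test gave 860 unadjusted and 0 adjusted. With all 9 month left lungs as a common baseline it was 1533, with 53.4% higher in place of 40.1%, since only the right lungs then differ, and Rasd2 turned to −0.18 and Col3a1 to 1.17. The cause of the other shifts was not tested.

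The counts of resolving (67) and late-starting (114) transcripts moved alike. They were 26 and 42 with detection on at least 3 arrays, 25 and 35 with no filter, 32 and 73 with only the 12 arrays, 184 and 321 with the unadjusted t-test, 0 and 0 with the adjusted, 353 and 554 with array weights, and 362 and 695 with the common baseline. The 3 month count of 3 was 43 without background correction, 38 with an offset of 50, 54 with the authors' values, 38 at a detection p under 0.01, 1 with detection on at least 3 arrays, 0 with detection on the 12 arrays or with only its own arrays fitted, 520 and 0 with the t-test, 416 with array weights and 777 with the common baseline. The age difference gave 408 with the unadjusted t-test and 0 otherwise.

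The day 3 and day 7 responses were 1720 and 1965 with the authors' values, 5701 and 6169 with no fold threshold and 0 and 1 with the adjusted t-test, and day 3 was 1727 unadjusted. For right and left lungs the counts were 840 and 415 with the authors' values, 2512 and 1735 with no fold threshold and 0 and 0 with the adjusted t-test.

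With each pool left out in turn, the change ranged from 5 (without replicate 3 of day 7) to 213, resolving from 2 to 105, late-starting from 2 to 113, the day 3 response from 2250 to 3512, the day 7 response from 2756 to 3519, right lungs from 862 to 1904, left lungs from 446 to 902, the 3 month change from 0 to 32, and the age difference stayed at 0. Leaving out replicate 3 of day 7 gave the lowest counts for the change, both classes, right and left lungs. The share higher was 52.9%, 58.5% and 60.0% without replicates 1 and 2 of day 3 and replicate 3 of day 7, in this order. With replicates 1 and 3 of day 3 both left out, the counts were 26 for the change, 5 and 16 for the classes, 1525 for day 3, 322 and 166 for right and left lungs and 0 at 3 months.

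With the replicate number as a block, 113 transcripts changed (110 shared), of which 38 were resolving and 61 late-starting, and 0 at 3 months. Ratios of the same number on day 3 and day 7 deviated together by 0.0204, 0.203 and 0.229, but the mice differ, and the number only names a pool. Without the pairing of left and right lungs, the counts were 467, 145, 204 and 134. Over the named genes and all settings, 503 values lost their call and 229 gained one. Probes near the background of the array limit what was tested, since a gene absent from one lung was left out.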
